A study of Mus musculus with 5 samples.

Results

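The genes that mark the steps of osteoblast differentiation, Runx2, Sp7, Alpl, Ibsp, Bglap, Bglap2 and Dmp1, were taken by name from the 31055 genes of a single-cell RNA-seq series of mouse hindlimb muscle, so that the set holds 7 of 31055 genes. All cells came from C57Bl/6 mice of the genotype Prx1Cre;mTmG, in which cells whose limb mesenchymal ancestors expressed Cre carry GFP, and GFP+ cells were sorted before library preparation. The 5 libraries were d0 (uninjured muscle), d3 and d5 after a non-stabilized tibial fracture (post-fracture), and d3 and d5 after the same fracture together with mechanical injury of the muscles around it (post-polytrauma). Tendons and fat were taken off the dissected muscles of the lower leg, and care was taken to leave out periosteum and marrow. Each condition was 1 library made from a pair of pooled mice, and the study used young adult males or females. Prx1Cre is active in limb mesenchyme at large, so GFP+ cells of muscle can hold several cell types. Values between conditions therefore have no replicate check, and every interval below covers counting error only.

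Bone formation by osteoblasts begins with Runx2, the transcription factor that commits mesenchymal cells to the lineage, and continues with Sp7 (osterix), a transcription factor that acts after it. Alpl, tissue-nonspecific alkaline phosphatase, and Ibsp, bone sialoprotein, take part in mineralisation. Bglap and Bglap2 encode osteocalcin of mature osteoblasts, and Dmp1 is a matrix protein best known from osteocytes. Runx2, Sp7, Alpl and Ibsp are also expressed by maturing chondrocytes, so the genes do not by themselves mark osteoblasts.

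The conditions of 2 libraries were set by cell numbers and not by their labels, because the study's cell numbers fit the libraries only with these 2 names exchanged. The library labelled d3 post-polytrauma held 2001 barcodes and is called d5 post-fracture here. The library labelled d5 post-fracture held 6915 barcodes and is called d3 post-polytrauma here. The d5 post-fracture library so named shared 944 barcodes with d5 post-polytrauma and 0 with the 3 other libraries, whereas the d0 and d3 libraries shared 405 to 525 with each other and 0 to 3 with the d5 libraries. The d5 libraries therefore used another set of barcodes, and day 5 cannot be told apart from that set. Read by the deposited labels, each value given for d5 post-fracture belongs to d3 post-polytrauma and the reverse.

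After filtering, 4632 cells were retained at d0, 5589 and 1468 at d3 and d5 post-fracture, and 6201 and 11941 at d3 and d5 post-polytrauma, 29831 of 34439 barcodes. The d0 cells were shallow, with a median of 3640 UMIs (unique molecular identifiers, counted transcripts) against 15688 to 34949 in the injury libraries. The retained UMIs numbered 17437190 at d0 and 51864740 to 202233564 after injury. Levels are CPM, the UMIs of a gene in each 1e6 UMIs of the library, and shares of cells were taken after each cell was thinned to 2000 UMIs. The label of muscle mesenchyme was checked against marker lists. The FAP/MP list (fibro-adipogenic and mesenchymal progenitors, with Prrx1, Cxcl12, Pdgfra, Ly6a and Cd34) summed to 933 to 2332 CPM with no gene at 0. The tenocyte list summed to 233 to 2381 CPM and the pericyte list to 63.2 to 726 CPM, both highest at d0. The myogenic list summed to 0.287 to 3.72 CPM, the endothelial list to 3.64 to 48.7 CPM and the hematopoietic list to 14.3 to 101 CPM. Even so, clustering within the libraries, described below, gave 142 cells led by Myog and Mylpf at d3 post-polytrauma. It also gave 78 cells led by AA467197, Acta1 and Mylpf at d5 post-polytrauma. The chondrocyte list (Col2a1, Acan, Fgfr3, Sox9 and Col9a1) summed to 80.3 CPM at d0, 125 and 118 CPM at d3 post-fracture and d3 post-polytrauma, 2816 CPM at d5 post-fracture and 300 CPM at d5 post-polytrauma. In sums over a library, fewer cells of a type and less RNA per cell cannot be told apart.

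The osteocalcin genes need care because their transcripts are almost the same. Bglap (chromosome 3, 88383501 to 88384464) and Bglap2 (88377736 to 88378699) lie on the same strand of the mouse build mm10 (GRCm38). Their coding sequences of 285 bases were identical at 281 positions (98.6%). The last 150 coding bases are shown because 3′ libraries read near this end, with the single differing base in capitals.
Bglap: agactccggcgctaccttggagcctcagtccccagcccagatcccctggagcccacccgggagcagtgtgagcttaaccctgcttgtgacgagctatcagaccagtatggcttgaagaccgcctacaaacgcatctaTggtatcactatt
Bglap2: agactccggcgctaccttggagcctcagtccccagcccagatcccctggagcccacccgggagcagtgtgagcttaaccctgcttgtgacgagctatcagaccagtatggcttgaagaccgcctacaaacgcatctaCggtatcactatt
Of the 98-base windows in the last 300 bases of the Bglap transcript, 51.7% also occurred in Bglap2. How the counting split or dropped reads of the pair was not tested, so each count is uncertain and the sum of both is given beside them. Bglap3, the remaining gene of the cluster (88368616 to 88372743), differed from Bglap at 13 of 285 coding positions.

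The other members lie at 4 further places. Runx2 is on chromosome 17 (44495987 to 44814797), Sp7 on chromosome 15 (102356606 to 102367182) and Alpl on chromosome 4 (137741733 to 137796384). Ibsp (104299171 to 104311469) and Dmp1 (104202613 to 104214102) are neighbours on chromosome 5, in the cluster of mineralised-tissue matrix genes.

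The RUNX motif ACCACA (or TGTGGT on the other strand) was searched in the 250 bases before the start of transcription, taken from RefSeq (GRCm38.p6), where 5 of the 7 members had an entry. It occurred in 14.05% of all 32851 windows of this length. The Bglap window, chr3:88384467-88384716 on the minus strand, held 1 match, shown in capitals because osteocalcin is the textbook target of Runx2 in this set.
Bglap: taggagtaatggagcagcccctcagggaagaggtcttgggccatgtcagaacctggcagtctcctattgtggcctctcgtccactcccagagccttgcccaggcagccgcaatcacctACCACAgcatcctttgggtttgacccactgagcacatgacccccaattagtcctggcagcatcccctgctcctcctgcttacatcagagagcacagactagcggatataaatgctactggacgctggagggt
The match began 132 bases before the start. Runx2 itself and 1 of the 2 listed Dmp1 starts also held 1 match, and the windows of Ibsp and Alpl held none. A match is a description of letters and not a measured site.

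Each of the 7 genes followed one of a few patterns over the libraries. Runx2 was lowest at d0 and higher in every injury library. Sp7, Alpl and Ibsp were lower at d3 than at d0 and highest at d5 post-fracture. Bglap, Bglap2 and Dmp1 were highest at d0.

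**Figure D1:**
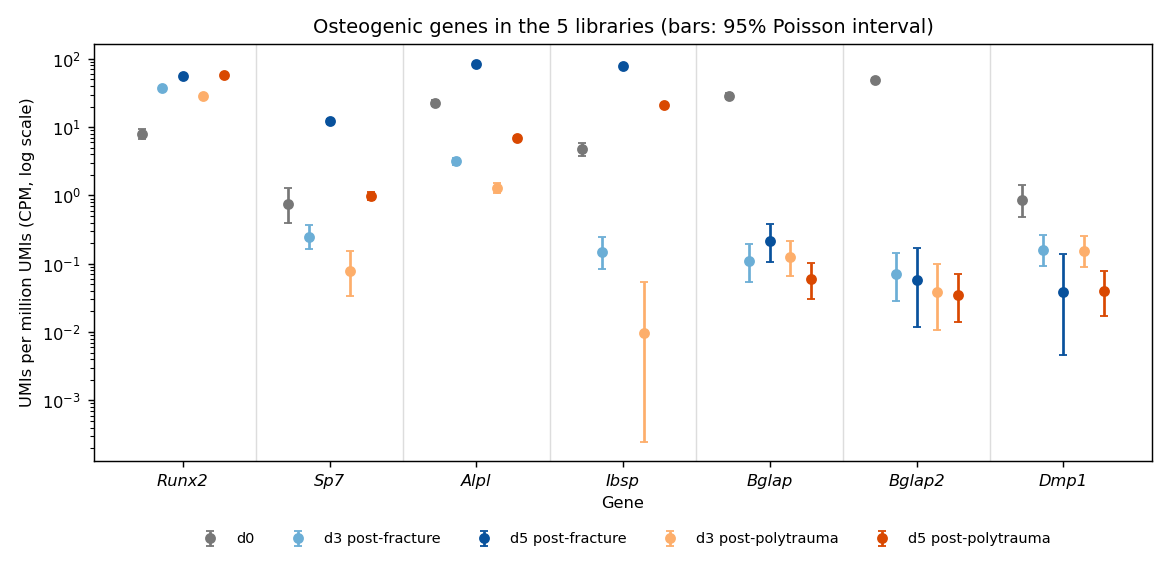
Level of each gene in CPM (log axis) in the 5 libraries, with 95% Poisson intervals that cover counting error only. Bglap and Bglap2 stand at 28.6 and 48.5 CPM at d0 and at or under 0.212 CPM after injury, while Alpl and Ibsp peak at d5 post-fracture at 84.6 and 78.7 CPM.

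Runx2, the commitment factor, was at 7.91 CPM at d0 (95% Poisson interval 6.65 to 9.35). After fracture it was at 37.4 CPM at d3 (36.2 to 38.6) and 55.7 CPM at d5 (53.7 to 57.8). After polytrauma it was at 28.8 CPM at d3 (27.8 to 29.9) and 58.6 CPM at d5 (57.6 to 59.7). In CPM the d5 libraries of both injuries were neighbours at the top of the order, and only their intervals met. With median-of-ratios scaling the order above d3 post-polytrauma (36.3) was d5 post-polytrauma (52.6), d3 post-fracture (48.6) and d5 post-fracture (43.5). Under both scalings d0 was lowest, d3 post-polytrauma was next above it and d5 post-polytrauma was highest. The d3 and d5 post-fracture libraries traded places. After thinning, 1.34% of cells held a Runx2 UMI at d0, 6.58% at d3 post-fracture, 5.57% at d3 post-polytrauma, 9.11% at d5 post-fracture and 10.8% at d5 post-polytrauma. Unthinned, the shares were 2.63% and 33.7 to 63.2%, which follow depth as well. Hematopoietic-like clusters, whose median depth was 3803 to 6815 UMIs, were set against the share of their own library after thinning. Runx2 was held by 1 of 20 of their cells at d3 post-fracture (5.00%, library 6.58%) and 5 of 80 at d3 post-polytrauma (6.25%, library 5.57%). At d5 post-polytrauma it was held by 1 of 24 (4.17%, library 10.8%). In other clusters at d3 the shares were lower, 0 of 47 and 1 of 53 Pericyte-like cells, 1 of 57 cells led by Myh11 and 2 of 122 cells led by Myog.

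Sp7, which acts after Runx2 in osteoblasts, was scarce everywhere but at d5 post-fracture. It had 13 UMIs at d0 (0.746 CPM, 0.397 to 1.27). After fracture it had 25 UMIs at d3 (0.2501 CPM, 0.162 to 0.369) and 631 at d5 (12.2 CPM, 11.2 to 13.2). After polytrauma it had 8 UMIs at d3 (0.0775 CPM, 0.0334 to 0.153) and stood at 0.994 CPM at d5 (0.861 to 1.14). The d0 and d5 post-polytrauma intervals overlap. At full depth 22 of 5589 cells held Sp7 at d3 post-fracture (0.394%) and 7 of 6201 at d3 post-polytrauma (0.113%). Thinned to 2000 UMIs, 0 of 5364 and 0 of 6118 cells did, where 3 counts would be 0.0559% and 0.0490%. At d5 post-fracture, 31 of 1438 thinned cells did (2.16%, exact binomial interval 1.47 to 3.05), against 20 of 11517 at d5 post-polytrauma (0.174%, 0.106 to 0.268).

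Alpl, the phosphatase, was at 22.7 CPM at d0 (20.5 to 25.0). After fracture it was at 3.16 CPM at d3 (2.82 to 3.53) and 84.6 CPM at d5 (82.1 to 87.1). After polytrauma it was at 1.31 CPM at d3 (1.10 to 1.55) and 7.04 CPM at d5 (6.68 to 7.41). No intervals overlap. Thinned cells with Alpl made up 3.55% at d0, 0.578% and 11.1% at d3 and d5 post-fracture, and 0.163% and 0.955% at d3 and d5 post-polytrauma. The order of the shares was that of the levels.

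Ibsp, bone sialoprotein, was at 4.76 CPM at d0 (3.79 to 5.90). After fracture it was at 0.150 CPM at d3 and 78.7 CPM at d5 (76.3 to 81.2). After polytrauma it was at 0.00968 CPM at d3 and 21.2 CPM at d5 (20.6 to 21.8). The 83 UMIs at d0 came from 7 cells. All 15 UMIs at d3 post-fracture came from 1 cell, and d3 post-polytrauma had 1 UMI. At d5 the levels rested on few cells as well. The cell with most Ibsp held 697 of 4082 UMIs at d5 post-fracture and 985 of 4288 at d5 post-polytrauma. Without the 10 cells with most Ibsp, a setting chosen after seeing the data, the level was 31.6 CPM at d5 post-fracture and 4.81 at d5 post-polytrauma.

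Osteocalcin was measured almost entirely in uninjured muscle. Bglap had 499 UMIs at d0 (28.6 CPM, 26.2 to 31.2) and 11 to 13 in each injury library, 0.0593 to 0.212 CPM. Bglap2 had 846 UMIs at d0 (48.5 CPM, 45.3 to 51.9) and 3 to 7 in each injury library, 0.0346 to 0.0700 CPM. The sum of both was 77.1 CPM at d0 and 0.0940 to 0.270 CPM after injury. Bglap3 ran the same way, with 53 UMIs at d0 (3.04 CPM) and 1 to 8 after injury.

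Dmp1, the osteocyte matrix gene, had 15 UMIs at d0 (0.860 CPM, 0.481 to 1.42), 16 and 2 at d3 and d5 post-fracture, and 16 and 8 at d3 and d5 post-polytrauma. Of the other osteocyte genes in the lists, Mepe had no UMI in any library and Sost was at or under 0.0290 CPM. Phex was at 1.66 CPM at d0 and 0.0800 to 0.521 CPM after injury. No cell of any library held more than 4 Dmp1 UMIs.

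The comparison of d3 post-fracture with d0 asks what the first days of repair do to these genes in muscle cells. A gene was counted as past the fold when its CPM ratio was at least 2 and both libraries together had at least 20 UMIs, with no test behind the count. 1 of 7 members was past the fold upwards, where 13.4% of 14610 genes were, and 6 were past it downwards, where 33.5% were. Runx2 was 4.72-fold higher (95% interval of the ratio 3.98 to 5.64). Bglap was 260-fold lower (144 to 524), Bglap2 693-fold lower (335 to 1728) and their sum 428-fold lower (270 to 725). Alpl was 7.16-fold lower (6.16 to 8.33), Ibsp 31.7-fold lower (18.2 to 59.2) and Dmp1 5.37-fold lower (2.47 to 11.6). Sp7 was 2.98-fold lower (1.40 to 6.05). Several of these genes rested on the same d0 cells. There, 27 of 4632 cells carried 96.8% of the osteocalcin UMIs and 77.1% of the Ibsp UMIs, and were 8 of the 11 cells with Sp7. In the other d0 cells, described below, the Sp7 level was close to that of d3 post-fracture. The folds of the genes held by few cells depended on how cells were weighted. Without the 5% of cells with most UMIs, Bglap was 63.1-fold, Bglap2 242-fold and Ibsp 8.42-fold lower, and with equal weight for each cell 109.9-fold, 223-fold and 16.0-fold lower. Dmp1 was 1.07-fold lower with equal weight for each cell. The median difference in log2(CPM + 1) was -2.32 over the members and -0.32 over all genes with 20 UMIs. The tenocyte list (Scx, Tnmd, Kera, Fmod and Thbs4) was also lower, at 351 against 2381 CPM, and the pericyte list (Cspg4, Des, Mylk, Rgs5 and Notch3) at 68.2 against 726, with no gene of either at 0, and their part in these differences was not tested.

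From d3 to d5 post-fracture, Sp7, Alpl and Ibsp were higher, Runx2 was within 2-fold and osteocalcin showed no detectable difference. Of 5 members with 20 UMIs, 3 were past the fold upwards, where 40.3% of 15115 genes were, and 0 downwards, where 5.45% were. Ibsp was 524-fold higher (318 to 938), Sp7 48.6-fold (32.6 to 75.7) and Alpl 26.7-fold (23.9 to 30.1). Runx2 was 1.49-fold higher (1.42 to 1.56), a direction that turned with median-of-ratios scaling, which gave 0.895. The ratio for Bglap and Bglap2 together was 1.499 (0.690 to 3.19), so no difference was detectable at this depth. The median log2 difference was 0.56 over the members and 0.45 over all genes.

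Against d0, d5 post-fracture was higher in 4 of the 6 members with 20 UMIs and lower in 2, where 23.8% and 15.8% of 14685 genes were. Ibsp was 16.5-fold higher (13.3 to 20.8), Sp7 16.3-fold (9.47 to 30.8), Runx2 7.04-fold (5.93 to 8.41) and Alpl 3.73-fold (3.37 to 4.15). Bglap and Bglap2 together were 286-fold lower (170 to 524). The median log2 difference was 1.86 over the members and 0.17 over all genes. These 3 fracture comparisons share libraries.

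**Figure D2:**
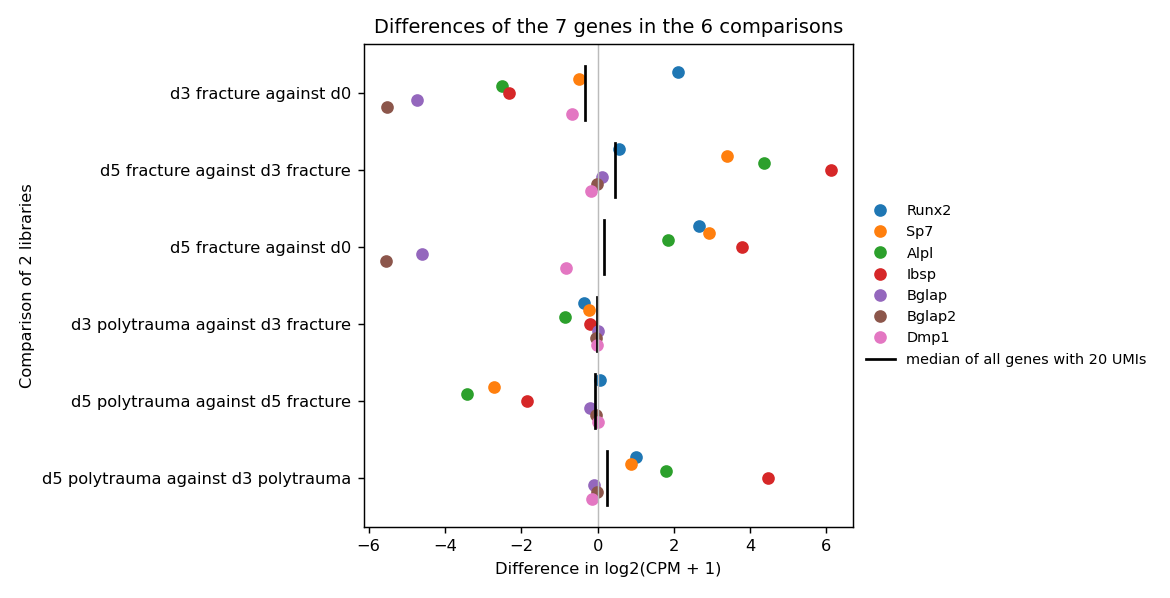
Difference in log2(CPM + 1) of the 7 genes (coloured points) in the 6 comparisons of 2 libraries, with the median over all genes with 20 UMIs as a black line. Sp7, Alpl and Ibsp lie right of the line in both comparisons of d5 with d3 and left of it for d5 polytrauma against d5 fracture, while Runx2 stays near the line there, at 0.07 against -0.08.

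Polytrauma was set against fracture at the same day to ask what the added muscle injury does to these genes. At d3, 0 members were past the fold upwards and 2 downwards of 5 with 20 UMIs, where 5.45% and 3.14% of 15038 genes were. Alpl was 2.42-fold lower (1.97 to 2.98) and Sp7 3.23-fold lower (1.41 to 8.28). Runx2 was 1.30-fold lower (1.24 to 1.36). The median log2 difference was -0.19 over the members and -0.01 over all genes.

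At d5, Sp7, Alpl and Ibsp were lower after polytrauma and Runx2 was close to equal. Of 5 members with 20 UMIs, 4 were past the fold downwards and 0 upwards, where 14.7% and 3.74% of 15979 genes were. Sp7 was 12.2-fold lower (10.4 to 14.4), Alpl 12.02-fold (11.3 to 12.8) and Ibsp 3.71-fold (3.56 to 3.88). The fourth, Bglap, rested on 12 against 11 UMIs. Runx2 had a ratio of 1.05 (1.01 to 1.10). The summed chondrocyte list moved the same way, 300 against 2816 CPM, and the Chondrocyte-like cluster held 1.86% of cells against 11.8%. Without that cluster, a setting chosen after seeing the data, Sp7 was at 0.546 CPM after polytrauma and 3.27 after fracture, Alpl at 3.80 and 66.1, and Ibsp at 6.17 and 46.0. Lower levels were also present outside the cluster. Inside it, Sp7 was at 35.2 CPM after polytrauma and 58.1 after fracture, Alpl at 255 and 180, and Ibsp at 1170 and 248. In CPM, Alpl and Ibsp were thus higher after polytrauma inside the cluster, where 36 of its 222 cells held Ibsp. The shares of its cells after thinning were close. Alpl was held by 41 of 136 thinned cells after polytrauma (30.1%) and 54 of 171 after fracture (31.6%). Ibsp was held by 19 of 136 (13.97%) and 22 of 171 (12.9%). The median depth of the cluster was 10246 UMIs after polytrauma and 47576 after fracture. At d5 post-fracture the cluster held 29 of the 55 cells with 5 or more Ibsp UMIs. The chondrocyte list was not summed outside it, so the part of chondrocytes in these differences was not tested.

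Between d3 and d5 post-polytrauma, Sp7, Alpl, Ibsp and Runx2 were higher at the later time. Of 6 members with 20 UMIs, 4 were past the fold upwards and 2 downwards, where 28.8% and 7.49% of 16093 genes were. Ibsp had 4288 UMIs against 1, a ratio of 2190 with an interval of 393 to 86521. Sp7 was 12.8-fold higher (6.39 to 30.1), Alpl 5.38-fold (4.51 to 6.47) and Runx2 2.03-fold (1.95 to 2.12), which median-of-ratios scaling put at 1.45. The 2 lower members were Bglap (13 against 12 UMIs) and Dmp1 (16 against 8). The median log2 difference was 0.89 over the members and 0.25 over all genes.

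The UMIs were spread very differently over cells. Runx2 came from many cells with few UMIs each, and the 10 cells with most held 1.004 to 6.51% of its UMIs in the 4 injury libraries. For Alpl this share was 13.1% at d5 post-fracture and 16.0% at d5 post-polytrauma, and for Sp7 18.7% and 18.4%. For Ibsp it was 60.2% and 77.4%. At d0 the 10 top cells held 78.8% of Bglap and 73.4% of Bglap2.

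**Figure D3:**
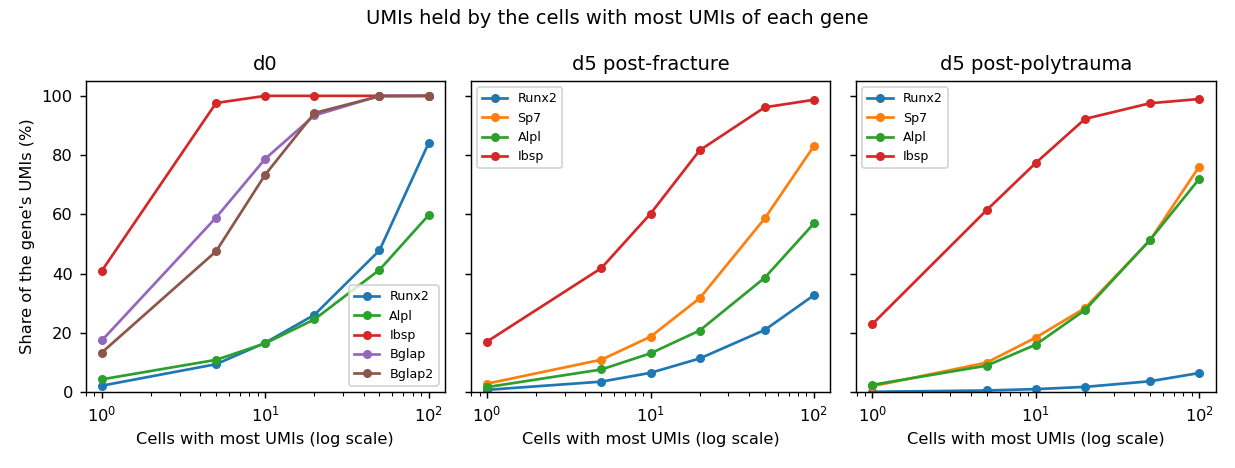
Share of each gene's UMIs (percent) held by the cells with most UMIs of that gene, from 1 to 100 cells (log axis), at d0, d5 post-fracture and d5 post-polytrauma. Drawn are genes with 100 or more UMIs in the library, and Ibsp at d0 with 83. Ibsp climbs to 60.2% and 77.4% by 10 cells in the d5 libraries, where Runx2 stays at 6.51% and 1.004%.

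At d0, 27 of 4632 cells held 5 or more UMIs of Bglap and Bglap2 together, a limit set after seeing the data, and carried 96.8% of these UMIs. No cell lay just outside the limit at 3 or 4. Of these 27 cells, 13 held Runx2, 8 held Sp7, 13 held Alpl, 5 held Ibsp and 0 held Dmp1. Their Sp7 level was 45.7 CPM against 0.232 in the 4605 other d0 cells, Runx2 117 against 6.67, Alpl 274 against 19.8 and Ibsp 325 against 1.10. So 9 of the 13 Sp7 UMIs and 64 of the 83 Ibsp UMIs of the library were in these 27 cells, whose median depth was 7945 UMIs against 3636.

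Further genes, chosen after their values were seen, were higher in these cells in some cases and lower in others. Col1a1, type I collagen, was at 20125 CPM against 3482 in the other cells, Sparc, osteonectin, at 23495 against 6731 and Dlx5, a homeobox regulator of osteoblasts, at 193 against 5.51. The whole fibroblast list (Col1a1, Sparc, Col3a1, Col5a1 and Postn) summed to 54053 CPM against 13727, with no gene at 0. Smpd3, a sphingomyelinase needed for mineralisation, had no UMI against 29.1 CPM. Mmp13, a collagenase of bone and cartilage, was at 900 against 5.28, from 5 of the 27 cells. Ly6a and Pdgfra, progenitor surface genes, were at 142 and 25.4 CPM against 989 and 159. The whole FAP/MP list, which holds both, summed to 950 CPM against 2347. The tenocyte list summed to 2023 CPM against 2385, with Fmod at 1774 against 1254, Tnmd at 71.1 against 459 and Kera at 0 against 199. Col2a1, Mepe, Sost and Phex had no UMI, and of the hematopoietic markers 6 of 7 were at 0. Mepe and Sost had none in the whole d0 library, where Col2a1 was at 7.80 CPM and Phex at 1.66 CPM. The 27 cells held 196769 UMIs in all, too few for these 0 counts to set them apart from the other cells. The whole chondrocyte list summed to 264 CPM against 78.2, and Col2a1 was its only gene at 0 in the 27 cells. Of the 27 cells, 26 sat in a cluster of 316 cells led by Wif1, Bglap2, Chad, Bglap and Fmod and left unnamed. In that cluster 5 of 5 tenocyte markers were above their mean over the other clusters. At a finer clustering (resolution 1.0), 66 cells led by Bglap2, Bglap and Ostn held 97.0% of both the Bglap and the Bglap2 UMIs. In these 66 cells 1 tenocyte marker was above its mean over the other clusters. A separate Tenocyte-like cluster of 250 cells led by Wif1 and Fmod had 0 Bglap and 2 Bglap2 UMIs. By the rule given under processing, 1 of the 27 barcodes was shared with another library.

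At d5, cells with 5 or more Ibsp UMIs stood out instead, 55 of 1468 post-fracture and 33 of 11941 post-polytrauma, with 96.7% and 96.3% of the Ibsp UMIs. With at least 3 UMIs there were 65 and 45 such cells, and with at least 10 there were 37 and 29. Post-fracture, 37 of the 55 held Sp7, 47 Alpl and 45 Runx2, and 1 held a Bglap UMI. Post-polytrauma, 17 of the 33 held Sp7, 30 Alpl and 21 Runx2, and 1 held Bglap and 2 Bglap2. The limit and these counts were taken without thinning. Median depths of the 2 groups were 42082 UMIs post-fracture and 14540 post-polytrauma, so depth and injury cannot be told apart in these counts. No cell of either library reached 5 UMIs of osteocalcin. The d0 cells above were picked by osteocalcin and the d5 cells by Ibsp, so a contrast of these groups in these genes follows in part from the choice. Picked by 5 or more Ibsp UMIs, d0 had 4 cells, of which 3 held Bglap and 3 Bglap2. Sp7 was at 65.3 CPM in the Ibsp-rich cells against 9.63 in the others post-fracture, and at 60.8 against 0.828 post-polytrauma.

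Several cartilage genes were high in the same cells. Col2a1, the collagen of cartilage, was at 6069 CPM against 1308 post-fracture and 5050 against 64.3 post-polytrauma, in 51 of 55 and 14 of 33 cells. Pth1r, the parathyroid hormone receptor of chondrocytes and osteoblasts, was at 468 against 89.8 and 858 against 44.2. Panx3, a channel gene of maturing chondrocytes and osteoblasts, was at 82.7 against 12.2 and 204 against 1.05. Col10a1, the collagen of hypertrophic cartilage, was at 0.424 against 2.16 post-fracture and 159 against 0.357 post-polytrauma, the latter from 3 cells. Col1a1 was at 19527 against 22863 and 13481 against 9913. The whole chondrocyte list summed to 9176 CPM against 2514 and 7586 against 279, and whether the Ibsp level belongs to chondrocytes or osteoblasts was not tested.

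**Figure D4:**
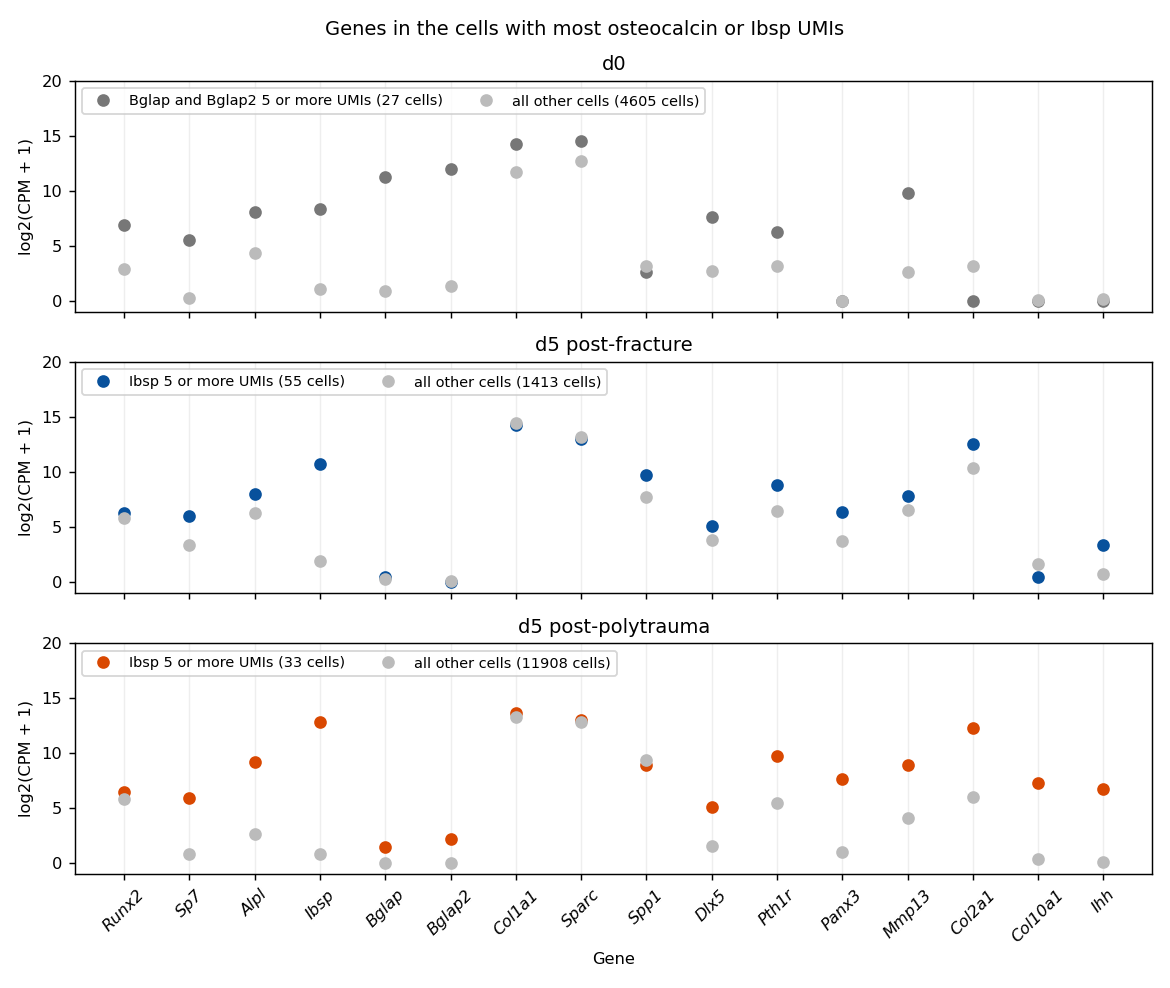
Level in log2(CPM + 1) of 16 genes in the cells with 5 or more UMIs of osteocalcin (d0, dark grey) or Ibsp (d5, blue and orange), and in the other cells of the library, in light grey. Summed over the 27 cells of d0, Bglap and Bglap2 were high. Col2a1 had no UMI in them, at a depth too low to set this apart from its d0 library level of 7.80 CPM. Summed over the 55 and 33 cells of d5, Sp7, Ibsp and Col2a1 were high with little osteocalcin. Sp7 was held by 37 of the 55 and 17 of the 33 cells, and Col2a1 by most of the 55 but not of the 33. Each group was picked by its own gene. The whole chondrocyte list was higher in the 27 cells of d0 than in the others, at 264 against 78.2 CPM.

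Cells were clustered within each library with the members and all listed genes left out. Runx2 was found in every cluster of at least 20 cells, at 10.8 to 84.6 CPM over 8 clusters at d5 post-fracture and 8.85 to 88.7 over 16 at d5 post-polytrauma. Sp7 peaked in the Chondrocyte-like clusters, at 58.1 CPM and 77.5% of the library's Sp7 UMIs at d5 post-fracture, and at 35.2 CPM and 45.8% at d5 post-polytrauma. Ibsp peaked there too, at 248 CPM (51.1% of its UMIs) and 1170 CPM (71.3%). A further 30.4% of the Ibsp UMIs of d5 post-fracture fell in a cluster of 127 cells led by the proliferation genes Pclaf and Top2a, at 226 CPM. In the Pericyte-like and Hematopoietic-like clusters of d5 post-polytrauma, which should lack Ibsp, 0 of 102 and 1 of 31 cells held it, against 36 of 222 Chondrocyte-like cells, at median depths of 9906, 6815 and 10246 UMIs. At d5 post-fracture 1 of 20 Pericyte-like cells (2.15 CPM) and 1 of 19 cells led by Myh11 (3.56 CPM) held it, against 45 of 173 Chondrocyte-like cells, at median depths of 22559, 13409 and 47576 UMIs. At a clustering resolution of 1.0, 102 cells of d5 post-fracture were named Chondrocyte-like and held 43.9% of the Sp7 UMIs (59.1 CPM) and 41.4% of the Ibsp UMIs (361 CPM). An unnamed cluster of 74 cells led by Ucma and Cdc20 then held 34.7% of the Sp7 UMIs (57.0 CPM) and 9.68% of the Ibsp UMIs.

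Alpl was the most widely placed gene after Runx2. At d5 post-fracture 4.55 to 72.8% of cells held it in each cluster at full depth. After thinning the shares were 0.758 to 31.6% in clusters of at least 20 cells. Its level was 180 CPM in the Chondrocyte-like cluster and 116 CPM in a cluster of 219 cells led by the granzyme genes Gzme and Gzmb. At d0 it peaked at 112 CPM in 327 FAP/MP-like cells led by Saa1, Trf and Dlk1. Of these, 27.2% held it at full depth and 17.8% after thinning. It was at 53.1 CPM in 558 FAP/MP-like cells led by G0s2 and Hsd11b1. Neither of these clusters had an Sp7 or Ibsp UMI. At d0, Dmp1 had 7 of its 15 UMIs in 729 cells led by Tagln and Myh11, and its highest level, 2.43 CPM, on 3 UMIs in the cells led by Saa1. Dmp1 had 10 of its 16 UMIs at d3 post-fracture in 67 cells led by Myh11 (39.1 CPM), and 8 of 16 at d3 post-polytrauma in 54 Pericyte-like cells (19.6 CPM). Sp7 and Bglap were also highest in that Pericyte-like cluster at d3 post-polytrauma, on 1 UMI each. At d5 post-fracture the 2 Dmp1 UMIs were in 19 cells led by Myh11. At d5 post-polytrauma 2 of its 8 UMIs were in 102 Pericyte-like cells and 4 in 1242 cells led by Hmga2 and Ass1.

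**Figure D5:**
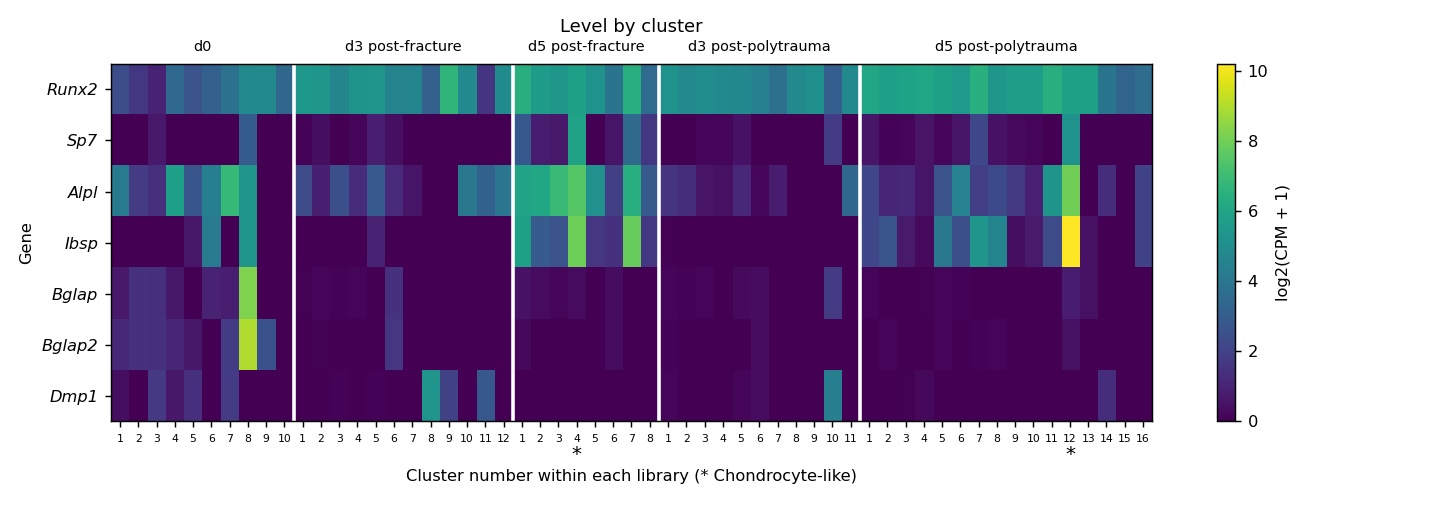
Level in log2(CPM + 1) of each gene (rows) in the 57 clusters of at least 20 cells (columns, numbered within each library), with Chondrocyte-like clusters marked by a star. Bglap and Bglap2 stand out in cluster 8 of d0, and Sp7 in the starred clusters of d5. Alpl and Ibsp are highest in the starred clusters too, but less apart from the others at d5 post-fracture. There Ibsp was at 225.5 CPM in the unstarred cluster 7 against 248 in the starred cluster 4. Alpl was at 116 CPM in the unstarred cluster 3 against 180.

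Over these 57 clusters, which share libraries and differ in depth, the levels of Sp7 and Ibsp ran together with a Pearson r of 0.84 on the log2 scale, and Bglap and Bglap2 with 0.92. Runx2 and Sp7 gave 0.28. Spearman rank correlations were 0.60 for Sp7 and Ibsp, 0.50 for Bglap and Bglap2 and 0.43 for Runx2 and Sp7. The genes most like Sp7 were Hapln1, Fzd9 and 3110079O15Rik (r of 0.89, 0.87 and 0.86), and those most like Ibsp were Fzd9, Matn3 and Hapln1 (0.87, 0.81 and 0.81). For Alpl they were Cnmd, Zim1 and S100b (0.75, 0.73 and 0.71), and for Runx2 Emilin1, Aebp1 and Maged1 (0.84, 0.83 and 0.83). Wif1, Chad and Cilp2 were most like Bglap (0.73, 0.65 and 0.63), and the same 3 genes were most like Bglap2. Dmp1 had too few UMIs for this measure. In the clusters used here, 316 cells of d0 had these 3 genes and both osteocalcin genes among their leading genes. The finer clustering gave 250 Tenocyte-like cells with the 3 genes among the leading ones, and 0 Bglap and 2 Bglap2 UMIs. A separate 66 cells held 484 Bglap and 821 Bglap2 UMIs, with none of the 3 among their leading genes. The likeness was not recomputed there, so expression in the same cells was not tested.

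Co-detection after thinning was rare. A pair or more of the 7 genes was found in 0.669% of cells at d0, 3.20% at d5 post-fracture and 0.339% at d5 post-polytrauma, and in 0 cells at d3. Alpl and Ibsp were found together in 13 cells at d5 post-fracture, where the product of the shares gives 5.53, and in 20 at d5 post-polytrauma, where it gives 0.478. Runx2 and Ibsp were together in 9 and 3 cells, against products of 4.55 and 5.38. Bglap and Bglap2 were together in 21 cells at d0 and in 0 elsewhere.

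The wider osteogenic pathway was read from 4 lists. The regulators (15 genes, among them Cbfb, the partner of Runx2, and the Dlx and Msx homeobox genes) had 0 genes past the fold upwards and 6 downwards of 13 with 20 UMIs from d0 to d3 post-fracture, where 13.4% and 33.5% of all genes were past it, and 7 and 0 of 13 from d3 to d5 post-fracture, where 40.3% and 5.45% were. From d5 fracture to d5 polytrauma they had 0 and 3 of 13, where 3.74% and 14.7% were. Matrix and mineralisation genes (17) had 2 and 5 of 14, then 9 and 0 of 13, then 1 and 4 of 13 in the same comparisons. Receptors of osteoblast signals (6) had 1 and 3, then 5 and 0, then 0 and 3 of 6. The genes of hypertrophic cartilage (5) had 0 and 0 of 2, then 4 and 1 of 5, then 0 and 4 of 5.

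The same 4 lists were counted in the other comparisons. From d3 fracture to d3 polytrauma, where 5.45% of all genes were past the fold upwards and 3.14% downwards, regulators had 1 past the fold upwards and 2 downwards of 14, matrix genes 2 and 1 of 13, receptors 0 and 0 of 6 and hypertrophic cartilage 0 and 1 of 2. From d3 to d5 polytrauma, where 28.8% and 7.49% were, they had 7 and 2 of 15, 8 and 0 of 13, 4 and 0 of 6, and 4 and 0 of 5. From d0 to d5 fracture, where 23.8% and 15.8% were, they had 6 and 3 of 13, 4 and 2 of 14, 3 and 0 of 6, and 4 and 1 of 5.

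Smpd3 had the largest ratio of the listed genes in 3 of the 6 comparisons. It was at 28.7 CPM at d0, 0.110 at d3 post-fracture, 27.7 at d5 post-fracture, 0.436 at d3 post-polytrauma and 1.65 at d5 post-polytrauma. It was 261-fold lower at d3 post-fracture than at d0 (145 to 526), 252-fold higher at d5 than at d3 (140 to 505) and 16.8-fold lower at d5 post-polytrauma than at d5 post-fracture (14.9 to 18.9). It was also among the leading genes of a d0 FAP/MP-like cluster.

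Panx3 was among the 3 largest ratios of the listed genes in 4 comparisons and Col10a1 in 3. Panx3 was at 15.4 CPM at d5 post-fracture and 1.61 at d5 post-polytrauma, 9.54-fold lower (8.38 to 10.9), and had 0 UMIs at d0. Col10a1 was at 2.08 and 0.796 CPM at the d5 times and had 1 UMI in each of the 3 other libraries. Spp1, osteopontin, was 23.0-fold higher at d3 post-fracture than at d0 (19.5 to 27.3). Pth1r was 8.99-fold higher at d5 than at d3 post-polytrauma (8.24 to 9.83).

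The Dlx genes were also among the largest ratios. Dlx6 was 8.72-fold lower at d5 post-polytrauma than at d5 post-fracture (6.37 to 12.1) and 5.58-fold lower at d3 post-polytrauma than at d3 post-fracture (2.12 to 18.6, 5 against 27 UMIs). Dlx3 was 3.04-fold higher in the same d3 comparison (1.25 to 8.43, 22 against 7 UMIs), and Smpd3 3.96-fold higher (2.02 to 8.49).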

How the data were processed

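The authors deposited raw UMI counts per gene and cell barcode, made with Cell Ranger from 10x 3′ libraries and the mouse build mm10. The matrix headers give software version 3.1.0, and the study's methods name a later one. The submitters' processing notes also name Seurat 3.1.2. The condition of 2 libraries was set as stated in the report. The members, gene lists and limits were chosen with earlier results of these data known.

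Cells with 350 to 8000 genes, under 20% mitochondrial UMIs and at least 1000 UMIs were kept. UMIs were summed per library and divided by the total (CPM). Levels have exact Poisson, shares exact Clopper-Pearson and ratios exact conditional binomial 95% intervals. With 1 library per condition no test was run. A 0 allows up to 3 counts. PCR copies were collapsed by UMI, so intervals cover counting error only. Clusters were made per library from 2000 variable genes, 20 principal components, 20 neighbours and Leiden at resolution 0.5 (leidenalg 0.10.2, scikit-learn 1.9.0). They were named when at least 3 markers of a list were found in 10% of cells and stood above their mean over the other clusters. Names other than FAP/MP also needed a marker of the list among the 10 leading genes. The clusters led by Myh11 at d3 and d5 post-fracture lacked one, with 5 and 4 of 5 pericyte markers up. The fibroblast list gave way to other lists. Ties, leading markers of another list and low depth could also leave a cluster unnamed, and a cluster led by osteocalcin genes stayed unnamed. Doublets were not called. Leaving out the 5% of cells with most UMIs was an alternative. Barcodes shared between libraries were kept. As an alternative, those with under 10 times the UMIs they had in another library were left out. This covered 11 retained cells at d5 post-fracture and 85 to 338 in each other library. Named genes were the members, Bglap3, the 3 listed genes with the largest ratio in each comparison, and the 3 genes most like each member. Genes shown in the cells rich in osteocalcin or Ibsp were chosen after their values were seen. The ratio step was tested on simulated data. Gene positions came from GENCODE M21, which matched 30934 of 31055 IDs. Python 3.11.15, numpy 2.4.6, scipy 1.17.1 and matplotlib 3.10.9 were used.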

Additional observations from a re-analysis of the deposited data

Results flagged for a closer look

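Runx2 differed in direction between the days when polytrauma was set against fracture. The ratio was 0.771 at d3 (95% interval 0.734 to 0.809) and 1.05 at d5 (1.01 to 1.10), and the difference between the days was not tested.

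Barcodes with 20% or more mitochondrial UMIs, which no comparison used, held Runx2 above the d0 level. Runx2 was at 58.6 CPM in 213 such barcodes of d5 post-fracture (44.2 to 76.3), 131 CPM in 63 of d3 post-polytrauma (63.0 to 242) and 75.6 CPM in 972 of d5 post-polytrauma (62.95 to 89.97), against 0 UMIs in 106 at d0, which allows up to 18.5 CPM by the exact Poisson interval. Ibsp was at 148 CPM in those of d5 post-polytrauma (130 to 167), where 239 of its 246 UMIs came from 1 barcode.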

How the results depend on the processing

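No paired analysis was possible because each condition was 1 library. The median log2 differences over the members were recomputed under 8 alternatives, and no minimum of UMIs, a minimum of 2000 UMIs and leaving out shared barcodes kept all 6 within counting error. The shared barcodes left out were 11 retained cells at d5 post-fracture and 85 to 338 in each other library. With conditions as the deposited labels give them, d5 fracture against d0 reversed to -2.51, d5 fracture against d3 fracture was -0.19, d3 polytrauma against d3 fracture 0.56, d5 polytrauma against d5 fracture 0.89 and d5 polytrauma against d3 polytrauma -0.19, because the libraries trade places. Median-of-ratios scaling, which moved the median of all genes from 0.45 to -0.0026 for d5 fracture against d3 fracture and from 0.25 to -0.0029 for d5 polytrauma against d3 polytrauma, gave 0.028 and 0.52 there. For d3 fracture against d0 the median was -1.05 without the 5% of cells with most UMIs, -1.60 with equal weight for each cell and -2.80 with a pseudocount of 0.1 CPM. That pseudocount gave -0.37 for d3 polytrauma against d3 fracture and -0.97 for d5 polytrauma against d5 fracture. The cause of these shifts was not tested. Of 35 member levels, 35 stayed within their interval with a minimum of 2000 UMIs, 27 without the 5% deepest cells and 3 without the 10 cells with most UMIs of the gene. Without the 5% deepest cells, Bglap at d0 was 6.38 CPM and Bglap2 19.0 CPM. With no minimum of UMIs the counts of genes past the fold moved by over 1.5 times in 11 of 12 cases. Of the members' ratios with 20 UMIs, those not given in the report that moved by over 1.5 times under median-of-ratios scaling were d5 against d3 fracture for Sp7 (29.2), Alpl (16.1), Ibsp (315) and Bglap (1.16). For d5 fracture against d0, Ibsp was 58.5-fold higher without the 5% deepest cells and 32.9-fold with equal weight for each cell, and Bglap was 29.3-fold and 46.5-fold and Bglap2 291-fold and 199-fold lower. With equal weight for each cell, d5 polytrauma was 7.18-fold lower than d5 fracture for Sp7 and 7.45-fold for Alpl, Alpl was 9.19-fold higher at d5 than at d3 polytrauma and Bglap had a ratio of 1.001 there. In d3 polytrauma against d3 fracture, equal weight gave Sp7 2.13-fold lower, Dmp1 3.84-fold lower and Bglap 1.07-fold lower. Dmp1 had a ratio of 1.40 there with a minimum of 2000 UMIs, and Ibsp had a ratio of 444 for d5 against d3 polytrauma with no minimum of UMIs. At a clustering resolution of 1.0, 10 of 35 highest cluster levels moved, among them Bglap (1093 CPM) and Bglap2 (1854 CPM) at d0.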
